A study of Caenorhabditis elegans with 24 samples.

Results

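The 6 vitellogenin genes of Caenorhabditis elegans, vit-1 to vit-6, and rme-2, the gene of the yolk receptor, were followed library by library. These 7 genes were taken by their WormBase symbols from the 19669 genes counted, and every one of them was found and passed the filter on low counts. The study set adult worms that carry a deletion of C38D4.9 (metl-5) against wild-type (WT) worms, each strain at 37 and at 20 °C. Messenger RNA (mRNA-seq) and ribosome footprints, the stretches of mRNA covered by translating ribosomes, were sequenced. The 8 groups were mutant 37 °C, mutant 20 °C, WT 37 °C and WT 20 °C in each assay, with 3 libraries per group and 24 in all. The mutant groups share 1 deletion strain, and the sources used here state neither its allele and origin nor the time at 37 °C, the age in days and the sex of the adults. Whether the replicates are separate cultures is not said, so each p-value measures only how far these samples spread, which may be technical.

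Vitellogenins are large lipid-carrying yolk proteins, related to vertebrate apolipoprotein B, that the intestine of the adult hermaphrodite makes and secretes into the body cavity. Growing oocytes take them up through RME-2, a receptor of the low-density lipoprotein receptor family, by clathrin-mediated endocytosis, so yolk mRNA and its receptor mRNA sit in different tissues. METL-5 is an enzyme known to methylate an adenosine of ribosomal RNA. A temperature of 37 °C is a strong heat stress for this species.

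In the WBcel235 annotation 5 of the 6 vitellogenin genes lie on chromosome X. These are vit-1 (WBGene00006925; X, 7727889 to 7733168, plus strand), vit-2 (WBGene00006926; X, 5101042 to 5106169, plus strand), vit-3 (WBGene00006927; X, 3567355 to 3572549, minus strand), vit-4 (WBGene00006928; X, 3558769 to 3563965, minus strand) and vit-5 (WBGene00006929; X, 3403471 to 3408603, plus strand). The gene vit-6 (WBGene00006930) is on chromosome IV at 8261157 to 8266459, plus strand, and rme-2 (WBGene00004374) is on chromosome IV at 5470026 to 5473174, plus strand. The genes vit-3 and vit-4 are neighbours with 3389 bases and 0 annotated genes between them, and vit-5 lies 150.2 kb away. The coding sequences of the vitellogenin genes are 4812 to 4956 bases long and that of rme-2 is 2778 bases long. vit-3, vit-4 and vit-5 are known as near-identical copies, and vit-1 and vit-2 also share much sequence. Reads that map to several places were left out of the deposited counts (5.7 to 9.7% of mRNA reads and 7.3 to 16.9% of footprint reads per library). The split of reads among these copies, and any level of one copy against another, is therefore uncertain, more so for the short footprints. In vit-2 the protein-coding gene C42D8.9 overlaps on the opposite strand, with 0 to 14 mRNA counts per library. vit-3 and vit-4 each overlap an annotated noncoding RNA gene on the opposite strand that is not among the genes counted, and mRNA counts carry no strand, so reads of the partners cannot be told apart.

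Gene counts per library were 15522050 to 17239906 for mRNA. Footprint libraries held 4410194 to 10947947 gene counts at 37 °C and 11503305 to 19012050 at 20 °C. Even the weakest vitellogenin, vit-4, had at least 697 footprint counts in every library, and rme-2 had at least 148. The deleted gene metl-5 had 36 to 56 mRNA counts per mutant library and 106 to 164 per WT library. Among the footprint libraries 2 stood between the temperatures, judged by hsp-70, a heat shock gene of the HSP70 family. In the library labelled metl-5 20 °C replicate 2, hsp-70 was at 5083 CPM (counts scaled to the library's gene counts), against 25.5 and 10.8 CPM in the other 20 °C mutant libraries. In the library labelled WT 37 °C replicate 2 it was at 6909 CPM, against 17602 and 24087 CPM. The base means of the authors' deposited footprint table differed by a median of 0.134% from a mean over the 10 other libraries and by 3.81% from a mean over all 12, so these 2 are called the libraries absent from the authors' averages. A further 4 footprint libraries held counts of genes that mark the other strain, chosen after their values were seen: metl-5 37 °C replicates 2 and 3 (57 to 63 counts of ZK228.3, a gene with 0 mRNA counts in every mutant library) and WT 20 °C replicate 2 and WT 37 °C replicate 3 (147 and 27 counts of cTel55X.1, a gene with 0 mRNA counts in every WT library). These 6 are called the doubted footprint libraries, and footprint tests, summed shares and footprint-to-mRNA ratios are given with and without them. Levels per kilobase and the make-up of the yolk pool are given over all libraries. The libraries not doubted are replicate 1 of each strain at 37 °C and replicates 1 and 3 of each strain at 20 °C. Of these, WT 37 °C replicate 1 had the fewest gene counts (4410194). In it 52.0% of reads were not counted on genes, against 14.7 to 29.1% in the other footprint libraries. WT values at 37 °C without the doubted libraries rest on it alone. The 11 intestine markers and 15 oocyte markers found in the files all had counts in each of the 8 groups.

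Yolk genes were expressed at unequal levels, and their order differed between the assays. Among 19351 genes ranked per kilobase in footprints, vit-6 footprints stood at ranks 101 to 349 in the 37 °C libraries and 43 to 87 in the 20 °C ones. In the same ranking vit-4, the lowest of the vitellogenins by mean level, stood at 1164 to 4204 at 37 °C and 658 to 947 at 20 °C. Per kilobase of exon, vit-2 had the highest mRNA level of the 7 genes in all 4 groups and rme-2 the lowest. The vit-2 mRNA level was 1186 ± 145 CPM per kb in the mutant at 37 °C, 1009 ± 110.2 in the mutant at 20 °C, 997 ± 229 in WT at 37 °C and 792 ± 54.7 in WT at 20 °C (SD, n = 3 each). In WT at 20 °C the ranges of vit-2, vit-5 and vit-3 (694 ± 131 and 674 ± 82.0 CPM per kb for the last pair) overlapped from neighbour to neighbour, and so did those of vit-4, vit-6, vit-1 and rme-2 (541 ± 24.4, 511 ± 202, 271 ± 125 and 167 ± 54.8). Per kilobase of coding sequence, vit-6 had the highest footprint level in all 4 groups. It stood at 1101 ± 578 CPM per kb in the mutant at 37 °C, 3228 ± 771 in the mutant at 20 °C, 1133 ± 928 in WT at 37 °C and 3073 ± 448 in WT at 20 °C. In WT at 20 °C the order of footprint levels was vit-6, vit-2 (1693 ± 205), vit-1 (1106 ± 219), vit-5 (496 ± 74.1), vit-3 (269 ± 33.8), vit-4 (191 ± 16.9) and rme-2 (58.8 ± 28.9), and no neighbours in it overlapped. The order of the mean levels was the same in the mutant at 20 °C, where vit-2 overlapped vit-1 and vit-3 overlapped vit-4. At 37 °C vit-1 stood above vit-2 by mean level in both strains, and their ranges overlapped.

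Footprints per mRNA differed widely between the copies, within the limit set by reads that map to several places. In the mutant at 20 °C the ratio of mean footprint CPM to mean mRNA CPM was 4.86 for vit-6, 3.69 for vit-1, 1.71 for vit-2, 0.591 for vit-5, 0.348 for vit-3 and 0.321 for vit-4. In WT at 20 °C it was 5.89 for vit-6, 3.89 for vit-1, 2.10 for vit-2, 0.706 for vit-5, 0.390 for vit-3 and 0.345 for vit-4. The genes thus stood in the same order in both strains. The receptor gene rme-2 had ratios of 0.317 in the mutant and 0.340 in WT. Without the doubted libraries the ratio of vit-6 at 20 °C was 5.31 in the mutant and 6.23 in WT, and that of rme-2 was 0.278 and 0.252.

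**Figure D1:**
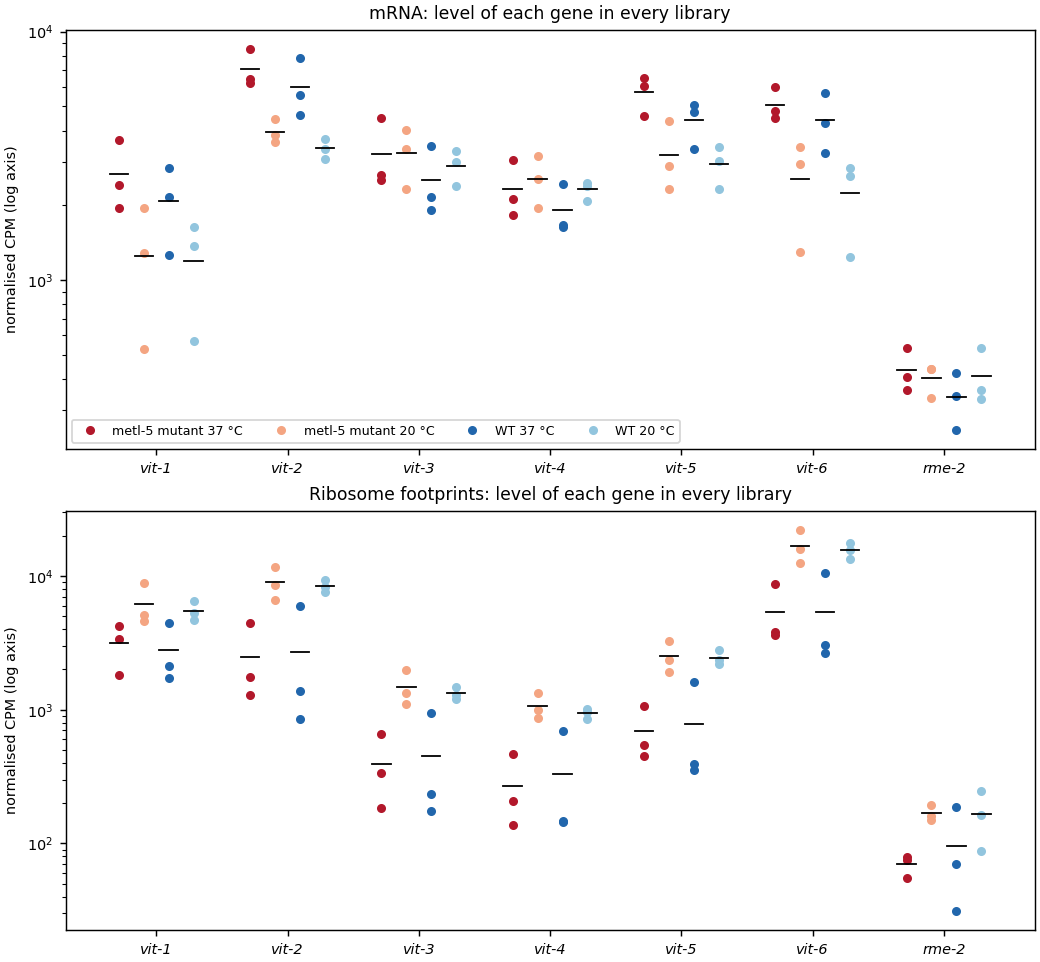
Level of each gene in every library, as normalised CPM (TMM-scaled) on a log axis, for mRNA (top) and ribosome footprints (bottom); points are libraries and black lines are group means of 3. For vit-1 to vit-6 the 37 °C footprint libraries all lie below the 20 °C ones of the same strain, while the mRNA of vit-2 lies above.

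The central comparison was 37 against 20 °C within each strain. Yolk footprints took a smaller part of the footprint libraries at 37 °C in both strains. By library totals, the parts that yolk mRNA took of the mRNA libraries overlapped between temperatures. The 6 vitellogenin genes together took 0.994, 1.97 and 0.804% of the footprint counts in the mutant at 37 °C, against 4.54, 2.94 and 3.10% in the mutant at 20 °C. In WT they took 0.681, 2.50 and 0.703% at 37 °C, against 3.88, 3.05 and 3.08% at 20 °C. No 37 °C library reached any 20 °C library of its strain, and the means at 20 °C were 2.81 times those at 37 °C in the mutant and 2.58 times in WT. Without WT 37 °C replicate 2 the ratio in WT was 4.83. Without the 6 doubted libraries, with 1 library per strain at 37 °C, the ratio was 3.84 in the mutant and 5.12 in WT. The WT library left there is replicate 1, with 52.0% of its reads not counted on genes. The highest 37 °C shares were those of the libraries labelled WT 37 °C replicate 2 and metl-5 37 °C replicate 2, both among the doubted ones.

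The same sum behaved differently in mRNA. It was 2.29, 2.12 and 2.09% of mRNA counts in the mutant at 37 °C, against 2.62, 2.12 and 1.60% at 20 °C. In WT it was 1.69, 1.63 and 1.89% at 37 °C, against 1.83, 1.79 and 1.55% at 20 °C. These ranges overlapped in both strains. All shares and fold changes are relative to the other transcripts, as no spike-in is described, and in whole worms fewer intestinal cells and less RNA per cell cannot be told apart.

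**Figure D2:**
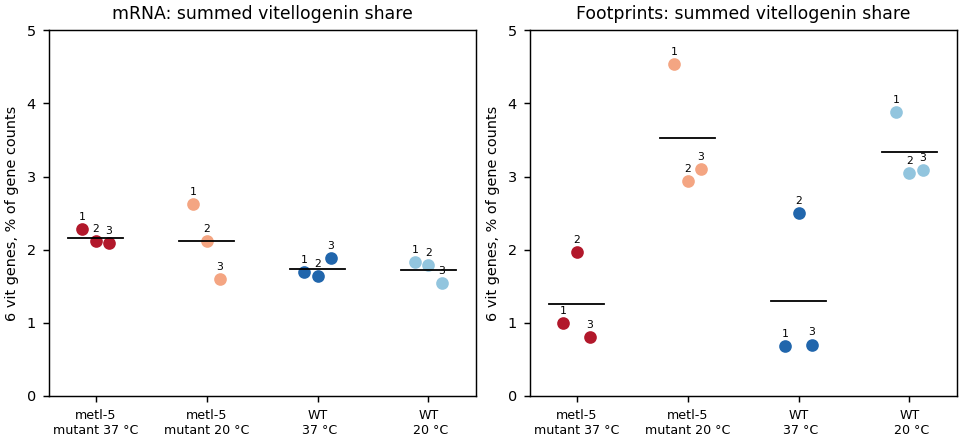
Summed share of vit-1 to vit-6 in each library, in % of gene counts, for mRNA (left) and footprints (right); numbers are replicates and black lines are means of 3. Footprint shares at 37 °C lie between 0.681 and 2.50%, below the 2.94 to 4.54% at 20 °C, while mRNA shares at the 2 temperatures overlap.

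By gene, footprints of all 6 vitellogenins were lower at 37 °C in both strains. In the reported fit, without a replicate block, 5 of the 7 genes passed the test in the mutant and 0 in WT. Of all 12387 genes tested, 26.9% were called in the mutant (14.7% lower, 12.2% higher) and 16.7% in WT (6.93% lower, 9.78% higher). Values per library are normalised CPM, scaled with the TMM factors that the test uses. Footprints of vit-6, whose product is cut into the smaller yolk polypeptides, were at 3837, 8662 and 3602 in the mutant at 37 °C, against 21934, 12455 and 15958 at 20 °C. In WT they were at 2631, 10572 and 3037 at 37 °C, against 17656, 13457 and 15510.1 at 20 °C. Every 37 °C library was below every 20 °C one in both strains, with replicate 2 highest among the heated ones. The log2 difference was -1.64 ± 0.51 (SE) in the mutant (adjusted p = 0.0338) and -1.52 ± 0.51 in WT (adjusted p = 0.0562).

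Footprints of vit-2, which encodes a large yolk polypeptide, were at 1293, 4411 and 1751 normalised CPM in the mutant at 37 °C, against 11623, 6636 and 8575 at 20 °C. In WT they were at 856, 5911 and 1388 at 37 °C, against 9311, 7548 and 8238 at 20 °C. The groups were again apart, with replicate 2 between the others and the 20 °C level. The fall was called in the mutant (-1.85 ± 0.63, adjusted p = 0.0462), while in WT the difference was -1.62 ± 0.63 (adjusted p = 0.0802). The near-identical group also fell in the mutant, with log2 differences of -1.90 ± 0.58 for vit-3 (adjusted p = 0.0319), -1.98 ± 0.58 for vit-4 (adjusted p = 0.0273) and -1.86 ± 0.53 for vit-5 (adjusted p = 0.0250). In WT the differences of vit-3, vit-4 and vit-5 were -1.55 ± 0.58, -1.51 ± 0.57 and -1.63 ± 0.53, with adjusted p of 0.0728, 0.0753 and 0.0505. Their levels in the mutant were 185 to 655, 137 to 467 and 453 to 1073 normalised CPM at 37 °C, against 1099 to 1966, 872 to 1343 and 1907 to 3273 at 20 °C. In WT they were 175 to 942, 145 to 693 and 352 to 1609.7 at 37 °C, against 1205 to 1478, 853 to 1007 and 2177 to 2788 at 20 °C. None of these ranges overlapped between temperatures.

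The smallest difference among the yolk genes was that of vit-1. Its footprints were at 3386, 4238 and 1825 normalised CPM in the mutant at 37 °C, against 8908, 5081 and 4574 at 20 °C. In WT they were at 2134, 4482 and 1734 at 37 °C, against 6459, 5249.6 and 4668 at 20 °C. The groups were apart on this scale but overlapped in CPM by library totals, and the log2 differences of -0.97 ± 0.41 in each strain did not pass the test (adjusted p = 0.0879 in the mutant and 0.101 in WT). In the TMM-scaled libraries the 37 °C values of all 7 genes in the mutant, and of all but rme-2 in WT, lay below every 20 °C value. That pattern was found in 27.5% of all genes tested in the mutant and 20.8% in WT.

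The calls on footprints rested on a few libraries. Without the 6 doubted ones, WT at 37 °C rested on replicate 1 alone, with 52.0% of its reads not counted on genes. Without WT 37 °C replicate 2 all 7 genes were called lower in WT, where vit-2 differed by -2.90 and vit-6 by -2.46, and all 7 were called lower in the mutant. With both libraries absent from the authors' averages left out, 7 genes were called in each strain. Without the 6 doubted libraries, which leaves 1 footprint library per strain at 37 °C whose spread is taken from the other groups, 6 were called in each, and vit-1 was the exception (adjusted p = 0.127 in the mutant and 0.0557 in WT). With the replicate number as a block, 7 genes were called in the mutant and 6 in WT, where rme-2 was not. In the mutant, leaving out 20 °C replicate 1 or 3 or 37 °C replicate 1 or 3 ended all 5 calls. The call on vit-2 there was also lost without metl-5 20 °C replicate 2 or any of the 3 WT 20 °C libraries, and rme-2 was called without WT 37 °C replicate 1. In WT, vit-5 and vit-6 were called without metl-5 37 °C replicate 2. The difference of every vitellogenin stayed negative in each of these fits. The share of all genes called in these fits is not given here, so their counts of calls stand without a background.

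**Figure D3:**
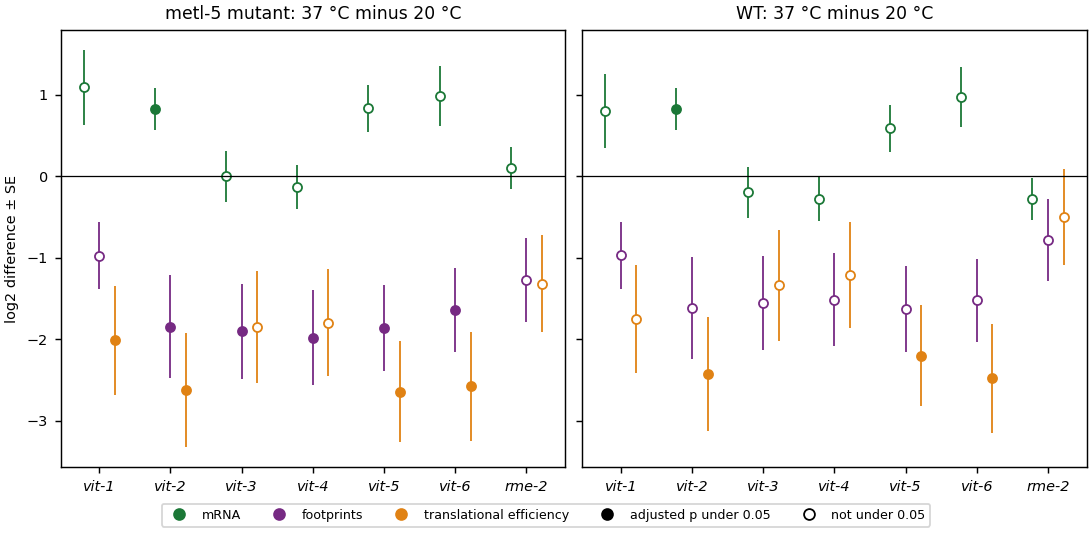
Log2 difference of 37 minus 20 °C for each gene in the metl-5 mutant (left) and WT (right), with bars of 1 SE, for mRNA, footprints and translational efficiency; filled points have an adjusted p under 0.05. Footprint and efficiency values lie below 0 for all 7 genes (with library totals rme-2 efficiency in WT lies just above 0), and vit-2 is the gene whose mRNA is called higher in both strains, though not when library totals are used.

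In mRNA the yolk genes split. The gene vit-2 rose in both strains, vit-1, vit-5 and vit-6 had positive differences that were not called, and vit-3 and vit-4 had differences close to 0. Thus 1 of 7 genes was called higher in each strain, where 10.8% of 13315 genes were called higher in the mutant and 9.76% in WT (9.16% and 8.5% lower, 20% and 18.3% in either direction). Groups that do not overlap, all higher at 37 °C, were found for 3 of the 7 genes in the mutant and 2 in WT, against 21.2% and 16.2% of all genes. Messenger RNA of vit-2 was at 6443, 6205 and 8487 normalised CPM in the mutant at 37 °C, against 4467, 3586 and 3831 at 20 °C. In WT it was at 5542, 4614 and 7834 at 37 °C, against 3384, 3070.5 and 3714 at 20 °C. All heated libraries were above all unheated ones, with log2 differences of 0.83 ± 0.26 in the mutant (adjusted p = 0.0343) and 0.82 ± 0.26 in WT (adjusted p = 0.0376).

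The mRNA of vit-6 was at 4800.2, 4477 and 5960.4 normalised CPM in the mutant at 37 °C, against 3442, 2946 and 1303 at 20 °C. In WT it was at 4279.7, 3254 and 5657 at 37 °C, against 2829.7, 2633 and 1240.5 at 20 °C. The groups did not overlap, but 20 °C replicate 3 was far below its partners in both strains, and the differences of 0.99 ± 0.37 and 0.98 ± 0.37 were not called (adjusted p = 0.0713 in the mutant and 0.0760 in WT). The mRNA of vit-5 was at 6532, 4567 and 6019 in the mutant at 37 °C, against 4381, 2887 and 2333 at 20 °C, and its difference of 0.83 ± 0.29 just missed the threshold (adjusted p = 0.0522). In WT it was at 5069, 3375 and 4759.6 at 37 °C, against 3448, 3005 and 2332 at 20 °C, a difference of 0.59 ± 0.29 (adjusted p = 0.163). These ranges were apart in the mutant and overlapped in WT.

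The mRNA of vit-1 was at 3670.4, 1947 and 2407 normalised CPM in the mutant at 37 °C, against 1948, 1289 and 528 at 20 °C, and again 20 °C replicate 3 was the lowest. In WT it was at 2816, 1265 and 2163 at 37 °C, against 1632, 1379 and 569.9 at 20 °C. The groups overlapped, with differences of 1.09 ± 0.46 in the mutant (adjusted p = 0.103) and 0.80 ± 0.45 in WT (adjusted p = 0.229). For vit-3 the differences were 0.00 ± 0.31 in the mutant and -0.20 ± 0.31 in WT, and for vit-4 they were -0.13 ± 0.27 and -0.28 ± 0.27. Ranges of both genes overlapped between temperatures in each strain on this scale.

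The direction in mRNA depends on how libraries are scaled. With library totals alone the median of all genes was -0.60 in the mutant and -0.49 in WT, against -0.01 and -0.02 with TMM. On that scale vit-2 was not called in either strain (its difference was 0.33 in WT), and vit-4 was called lower in both strains and vit-3 in WT. The call on vit-2 was lost in 5 of 12 fits that each left out 1 mRNA library for the mutant, namely 20 °C replicates 1, 2 and 3 and 37 °C replicates 1 and 3 of that strain. For WT it was lost in 6 of 12, without 20 °C replicates 1, 2 and 3, 37 °C replicates 1 and 3, or metl-5 37 °C replicate 1. The adjusted p of vit-2 then reached 0.150 in the mutant and 0.197 in WT. Leaving out 1 library also made calls: vit-5 in the mutant without metl-5 20 °C replicate 1, metl-5 37 °C replicate 2, WT 20 °C replicate 1 or 3 or WT 37 °C replicate 2, vit-6 in the mutant without WT 20 °C replicate 3, and vit-6 in WT without metl-5 20 °C replicate 3 or WT 37 °C replicate 2.

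Translational efficiency, the footprint difference minus the mRNA difference in 1 model, had differences farther below 0 than those of footprints for vit-1, vit-2, vit-5 and vit-6 in both strains. It fell for 4 of 7 genes in the mutant and 3 of 7 in WT, where 9.72 and 8.3% of 12079 genes were called lower (20.9 and 19.3% in either direction). For vit-5 the log2 difference was -2.64 ± 0.62 in the mutant (adjusted p = 0.00510) and -2.20 ± 0.62 in WT (adjusted p = 0.0157). For vit-2 it was -2.63 ± 0.70 in the mutant (adjusted p = 0.0106) and -2.43 ± 0.70 in WT (adjusted p = 0.0177). For vit-6 it was -2.58 ± 0.67 in the mutant (adjusted p = 0.00895) and -2.48 ± 0.67 in WT (adjusted p = 0.0123). The efficiency of vit-1 differed by -2.02 ± 0.67 in the mutant (adjusted p = 0.0335) and by -1.76 ± 0.66 in WT (adjusted p = 0.0665). The genes vit-3 and vit-4 had differences of -1.85 ± 0.68 and -1.80 ± 0.65 in the mutant (adjusted p = 0.0575 and 0.0533) and of -1.34 ± 0.68 and -1.22 ± 0.65 in WT (adjusted p = 0.182 and 0.206). The ratio of mean footprint CPM to mean mRNA CPM of vit-6 was 1.29 in the mutant at 37 °C against 4.86 at 20 °C, and 1.56 in WT at 37 °C against 5.89 at 20 °C. Without the 6 doubted libraries it was 0.941 in the mutant at 37 °C against 5.31 at 20 °C, and 0.785 in WT at 37 °C against 6.23 at 20 °C. Without WT 37 °C replicate 2 of the footprints all 7 genes were called lower in both strains, and without the 6 doubted libraries 5 were called in the mutant and 6 in WT, with vit-1 lost in the mutant (adjusted p = 0.131). The call on vit-6 held in all 24 fits that left out 1 library of either assay in both strains, and those on vit-2 and vit-5 in all 24 in the mutant. In WT, vit-2 was lost without replicate 3 at 37 °C of either assay and vit-5 without that of the footprints. The call on vit-1 in the mutant held in 17 of 24 fits and was lost without mutant mRNA replicates 2 and 3 at 20 °C and 1 and 3 at 37 °C, or mutant footprint replicates 1 at 20 °C and 1 and 3 at 37 °C. vit-3 and vit-4 in the mutant were called without metl-5 37 °C replicate 2 or any WT 37 °C library of the footprints, and vit-1 in WT without mRNA of metl-5 20 °C replicate 3 or WT 37 °C replicate 2. For these alternative fits of efficiency, too, the share of all genes called is not given here.

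Within the yolk pool the make-up also moved with temperature, as a description with no test. Of the footprint counts on the 6 genes, vit-1 took 35.3, 21.7 and 22.9% in the mutant at 37 °C, against 18.2, 18.1 and 13.5% at 20 °C. In WT it took 33.6, 18.5 and 25.2% at 37 °C, against 16.7, 17.2 and 14.1% at 20 °C. The share of vit-1 was higher in every 37 °C library than in any 20 °C one of its strain, and highest in replicate 1 of both strains. The share of vit-5 was lower in every 37 °C library, at 5.64, 5.50 and 5.69% in the mutant at 37 °C against 6.67, 6.80 and 6.92% at 20 °C, and at 5.54, 6.65 and 5.67% in WT at 37 °C against 7.21, 7.14 and 7.08% at 20 °C. The largest part in all 12 libraries was that of vit-6, with 40.0 to 45.3% in the mutant at 37 °C, 44.4 to 47.2% in the mutant at 20 °C, 41.4 to 44.2% in WT at 37 °C and 44.1 to 47.0% in WT at 20 °C.

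In mRNA the neighbouring copies vit-3 and vit-4 took a smaller part of the pool at 37 °C by their means. The share of vit-4 was 10.5, 9.68 and 6.71% of the vitellogenin mRNA counts in the mutant at 37 °C, against 14.8, 13.01 and 18.4% at 20 °C. In WT it was 10.3, 10.2 and 6.82% at 37 °C, against 14.4, 14.4 and 18.1% at 20 °C. No 37 °C library reached a 20 °C one. For vit-3 the shares were 15.5, 12.1 and 9.32% in the mutant at 37 °C against 18.8, 15.5 and 24.22% at 20 °C, with overlap, and 14.7, 13.3 and 7.998% in WT at 37 °C against 17.9, 16.4 and 24.215% at 20 °C, without. Replicate 3 stood at the end of the range for vit-3 and vit-4 at each temperature in both strains, low at 37 °C and high at 20 °C.

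**Figure D4:**
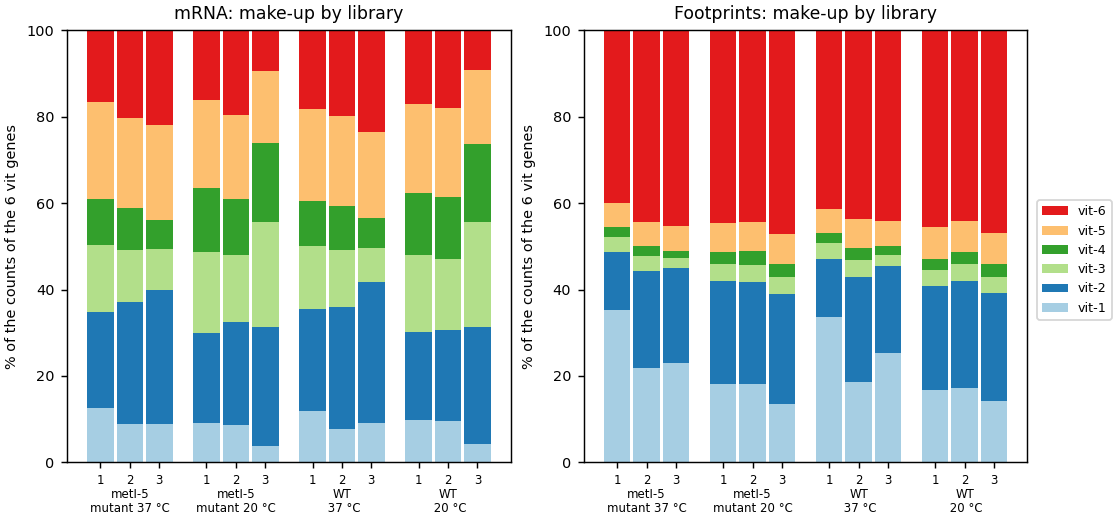
Make-up of the vitellogenin counts in each library, in % of the counts of vit-1 to vit-6, for mRNA (left) and footprints (right); numbers under the bars are replicates. In footprints vit-6 takes 40.0 to 47.2% and vit-1 takes more at 37 than at 20 °C, and in mRNA vit-4 takes less at 37 °C.

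The second question of the design is whether the strains differ, and 0 of the 7 genes were called in mRNA, footprints or translational efficiency, at either temperature or over both, and 0 in the interaction of strain with temperature in mRNA or footprints. In mRNA 0.03% of genes were called at 37 °C and 0.03% at 20 °C. In footprints and in translational efficiency 0% of genes were called between strains at either temperature. The interaction was called for 0% of all genes tested in mRNA and in footprints. Over both temperatures 0.0751% of genes were called in mRNA (372 had an unadjusted p under 0.05) and 0% in footprints (272) and in translational efficiency (130), so few genes passed anywhere. DESeq2 also called 0 of the 7. The mRNA differences of mutant minus WT over both temperatures were positive for all 7 genes, at 0.22 ± 0.32 for vit-1, 0.23 ± 0.18 for vit-2, 0.26 ± 0.22 for vit-3, 0.22 ± 0.19 for vit-4, 0.25 ± 0.20 for vit-5, 0.20 ± 0.26 for vit-6 and 0.17 ± 0.18 for rme-2. The lowest unadjusted p was that of vit-2 (0.227), and the adjusted p was 0.99996 for each. The median of all genes was -0.02.

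The summed vitellogenin share of mRNA was 2.16 ± 0.109% in the mutant and 1.74 ± 0.132% in WT at 37 °C (SD, n = 3 each). On library totals the libraries of the strains did not overlap there. That separation is stated for library totals alone. By gene, vit-5 mRNA was apart between the strains at 37 °C on totals but overlapped with TMM. Its normalised CPM then ran from 4567 to 6532 in the mutant and from 3375 to 5069 in WT. At 20 °C it was 2.11 ± 0.512% in the mutant and 1.72 ± 0.155% in WT, with overlap. Between libraries of the same number, taken as pairs of the strains in mRNA, the mutant was above WT in 3 of 3 pairs at 37 °C and in 3 of 3 at 20 °C, by 0.199 to 0.595 and by 0.0493 to 0.786 percentage points. The pairing by number was not clear for replicate 1 at 20 °C. In footprints the summed share was 1.26 ± 0.627% in the mutant and 1.30 ± 1.04% in WT at 37 °C, and 3.53 ± 0.884% in the mutant and 3.34 ± 0.472% in WT at 20 °C. In footprints the mutant was the higher one in 2 of 3 pairs at each temperature.

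Footprint differences of mutant minus WT at 37 °C changed sign with single libraries. Over all libraries those of the yolk genes ran from -0.28 ± 0.56 for vit-4 to 0.18 ± 0.40 for vit-1, with -0.13 ± 0.61 for vit-2, and that of rme-2 was -0.47 ± 0.51. Without WT 37 °C replicate 2 they were positive for all 7 genes, at 0.71 ± 0.36 for vit-1, 1.15 ± 0.45 for vit-2, 0.94 ± 0.42 for vit-3, 0.89 ± 0.40 for vit-4, 0.90 ± 0.35 for vit-5, 0.92 ± 0.37 for vit-6 and 0.45 ± 0.41 for rme-2. The unadjusted p was then 0.0234 to 0.0728 for the yolk genes, and the adjusted p was 1 for each. Without the 6 doubted libraries the values ran from 0.50 ± 0.33 for vit-4 to 0.81 ± 0.44 for rme-2, and 0 of the 7 genes were called. The summed share at 37 °C differed by -0.0388 percentage points over all libraries and by 0.564 without both libraries absent from the authors' averages.

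The authors' deposited table of footprints at 37 °C, whose base means are closest to a mean without WT 37 °C replicate 2, lists positive log2 fold changes of mutant against WT for all 6 vitellogenins. In the authors' deposited table they run from 0.70 for vit-1 (unadjusted p = 0.0617) to 1.14 for vit-2 (unadjusted p = 0.00995), with 0.45 for rme-2. The adjusted p in the authors' deposited table is 1 for each of the 7. In footprints and mRNA the interaction was not called for any gene tested, the 7 included, and it was not tested for efficiency. Calls in 1 strain and not in the other are therefore not shown to differ between strains.

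The receptor gene rme-2 is expressed in the germ line and had the lowest mean level per kilobase of the 7 genes in both assays, although at 20 °C its mRNA range overlapped that of vit-1 in both strains. Its mRNA was at 362, 532 and 408 normalised CPM in the mutant at 37 °C, against 438, 439 and 338 at 20 °C. In WT it was at 250.2, 424 and 341 at 37 °C, against 334, 536 and 362 at 20 °C. Both pairs of ranges overlapped, and the log2 differences were 0.10 ± 0.26 in the mutant (adjusted p = 0.819) and -0.28 ± 0.26 in WT (adjusted p = 0.479). With library totals the mutant value was -0.48, so its direction in mRNA turned with the scaling.

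Footprints of rme-2 were at 54.8, 78.6 and 75.6 normalised CPM in the mutant at 37 °C, against 159.9, 195 and 151 at 20 °C. In WT they were at 31.3, 186 and 70.6 at 37 °C, against 88.3, 248 and 164 at 20 °C. The mutant groups were apart and the WT groups overlapped through WT 37 °C replicate 2. The differences of -1.27 ± 0.51 in the mutant (adjusted p = 0.0779) and -0.79 ± 0.51 in WT (adjusted p = 0.262) were not called. Without WT 37 °C replicate 2 the rme-2 footprint difference in WT was -1.71 and was called (adjusted p = 0.00778). Translational efficiency of rme-2 differed by -1.32 ± 0.60 in the mutant (adjusted p = 0.124) and by -0.50 ± 0.59 in WT (adjusted p = 0.623).

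Genes of the yolk pathway and of the tissues on both of its ends were read beside the 7. Of the 11 intestine markers, 6 were called lower and 0 higher in footprints of the mutant, with a median log2 difference of -1.43, and 2 lower and 0 higher in WT, with a median of -1.28. Their summed footprint level was 1047 to 2353 CPM in the mutant at 37 °C, against 2795 to 4887 at 20 °C, and 1196 to 2730.1 in WT at 37 °C, against 3020.2 to 4746 at 20 °C. In mRNA their medians were 0.10 in the mutant and -0.05 in WT, with 2 higher and 1 lower in the mutant and 2 higher and 2 lower in WT. The vitellogenin medians were -1.85 in the mutant and -1.54 in WT in footprints, and 0.83 and 0.69 in mRNA. The medians of all genes were -0.05 and -0.03 in footprints and -0.01 and -0.02 in mRNA. Markers of other tissues were counted in the same way, first in footprints. Of 10 sperm markers tested, 6 were lower and 1 higher in the mutant (median -1.25) and 6 lower and 0 higher in WT (median -1.17). Of 7 hypodermis markers, 1 was lower and 0 higher in each strain, with medians of -0.77 in the mutant and -1.31 in WT. Body wall muscle markers had medians of -0.12 and -0.04, and neuron markers of -0.27 and -0.04. In mRNA 6 of 7 hypodermis markers were called higher and 0 lower in each strain, with medians of 1.88 in the mutant and 1.84 in WT. Of 7 body wall muscle markers, 4 were higher and 0 lower in mRNA in each strain (medians 1.10 and 1.04). These mRNA medians were above those of the vitellogenins. Sperm markers had mRNA medians of -0.60 and -0.70, and neuron markers of 0.02 and -0.12. The summed footprint level of the hypodermis markers was 356 to 990.5 CPM in the mutant at 37 °C, against 1818 to 2681 at 20 °C, and 301 to 1314 in WT at 37 °C, against 1878 to 3168 at 20 °C. That of the sperm markers was 205 to 226 CPM in the mutant at 37 °C, against 279 to 421 at 20 °C, and 189.8 to 294 in WT at 37 °C, against 341 to 477 at 20 °C. Lower footprints of the yolk genes thus stood beside lower summed footprint levels of intestine, sperm and hypodermis markers, and the part of these tissues in the result was not tested. Intestine markers that fell in both strains, chosen after their values were seen, were the aspartic protease gene asp-1 (-2.42 in the mutant and -2.16 in WT) and the intestinal peptide transporter gene pept-1 (-3.16 and -2.28), and pept-1 mRNA fell as well (-3.09 and -2.21).

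Of 12 genes listed as regulators of vitellogenin transcription, 1 was higher and 3 were lower in mRNA in the mutant, and 2 were higher and 1 lower in WT. The mRNA of daf-16, which encodes the FOXO factor of insulin signalling, fell in both strains, with log2 differences of -1.73 ± 0.28 in the mutant (adjusted p = 0.000700) and -1.51 ± 0.27 in WT (adjusted p = 0.00189). The mRNA of pqm-1, a zinc finger factor, rose by 1.13 ± 0.35 in the mutant and by 1.28 ± 0.35 in WT on the log2 scale (adjusted p = 0.0318 and 0.0188). The kinase gene sgk-1 rose in WT (1.02 ± 0.34, adjusted p = 0.0448) and had a difference of 0.94 ± 0.33 in the mutant (adjusted p = 0.0584). Footprints of these genes were not called. They differed by -0.53 ± 0.19 in the mutant and -0.45 ± 0.19 in WT for daf-16, 0.57 ± 0.52 and 0.18 ± 0.51 for pqm-1, and -0.38 ± 0.35 and -0.43 ± 0.35 for sgk-1. Efficiency was called higher for daf-16 in both strains (1.25 ± 0.34 in the mutant and 1.09 ± 0.34 in WT) and lower for sgk-1 in WT (-1.44 ± 0.48). In footprints 3 of 11 regulators tested fell in the mutant and 2 in WT, with 0 higher. Among them was elt-2, which encodes the main GATA factor of the intestine (-1.81 in the mutant and -1.37 in WT, named after its values were seen).

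Yolk leaves the intestine through the secretory pathway. Of 10 export genes found, 1 was lower and 0 higher in mRNA in each strain, and the medians were -0.49 in the mutant and -0.38 in WT. The gene called was sec-24.2, of the COPII coat that carries cargo from the endoplasmic reticulum. Its mRNA fell (-1.30 ± 0.24 in the mutant and -1.25 ± 0.24 in WT, adjusted p = 0.00174 and 0.00249), and so did its footprints, with -0.96 ± 0.27 and -0.88 ± 0.27 (adjusted p = 0.0240 and 0.0436). In footprints 6 export genes were lower and 2 higher in the mutant, and 2 lower and 0 higher in WT. Named after its values were seen, dsc-4, which encodes the microsomal triglyceride transfer protein that loads lipid onto lipoproteins, had footprints that fell (-1.66 in the mutant and -1.55 in WT).

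On the receiving side, 15 endocytosis genes had mRNA medians of 0.01 in the mutant and -0.04 in WT, and footprint medians of -0.30 and -0.13. In mRNA 3 were lower in the mutant and 2 in WT, with 0 higher in either. The mRNA of rab-10, a GTPase of endosomal recycling, fell (-1.06 ± 0.25 in the mutant and -1.05 ± 0.25 in WT, adjusted p = 0.00894 and 0.0102), while its footprints differed by 0.27 ± 0.21 and 0.32 ± 0.21. The mRNA of rme-8, an endosomal J-domain protein, fell (-1.60 ± 0.29 in the mutant and -1.09 ± 0.28 in WT, adjusted p = 0.00169 and 0.0153). Footprints of rme-8 differed by -0.35 ± 0.20 in the mutant and -0.21 ± 0.20 in WT and were not called. The 15 oocyte markers had footprint medians of -0.41 in the mutant (4 lower, 0 higher) and -0.17 in WT (0 called), and mRNA medians of -0.09 and -0.41. Their summed footprint level was 4308 to 6267 CPM in the mutant at 37 °C, against 3593 to 5213 at 20 °C, and 4139 to 5185 in WT at 37 °C, against 3448 to 5495 at 20 °C. These ranges overlapped between temperatures. In mRNA the summed oocyte level was 4576 to 6734 CPM in the mutant at 37 °C, against 7719 to 9376 at 20 °C, without overlap, and 3284 to 5844 in WT at 37 °C, against 5380 to 9238 at 20 °C, with overlap.

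**Figure D5:**
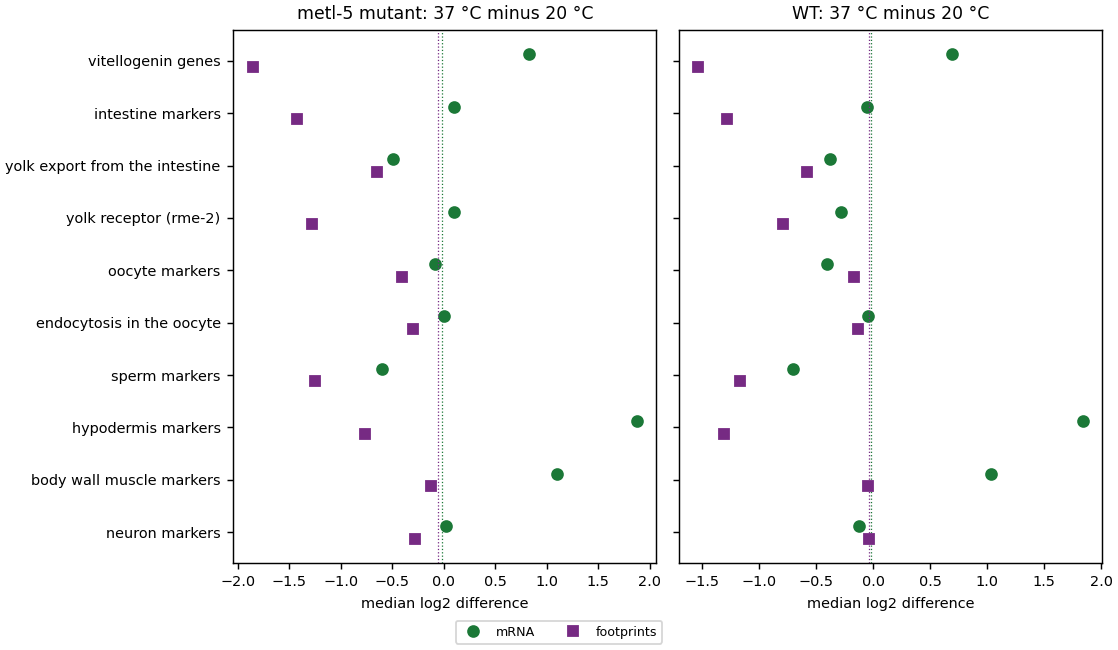
Median log2 difference of 37 minus 20 °C for each gene or marker list in the metl-5 mutant (left) and WT (right), in mRNA (circles) and footprints (squares); dotted lines are the medians of all genes tested. The vitellogenin genes have the lowest footprint median in both strains (-1.85 in the mutant and -1.54 in WT), followed in the mutant by intestine markers, rme-2 and sperm markers (-1.43, -1.27 and -1.25) and in WT by hypodermis, intestine and sperm markers (-1.31, -1.28 and -1.17).

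Among 7184 genes with a mean log2 CPM of at least 3, the mRNA patterns most like the summed vitellogenin level over the 12 mRNA libraries were those of F59A6.12, pmpl-1, F53F4.16, fdgt-1 and cey-1. Likeness was the mean absolute difference between log2(CPM + 0.5) values centred on each gene's own mean. These genes had 0.120, 0.134, 0.140, 0.143 and 0.147, against a median of 0.468 over the genes compared. A gene with no variation at all would stand at 0.190 from the sum, so these genes were only somewhat nearer than a flat one. Of the yolk genes themselves vit-5 was closest to the sum (0.0962) and vit-4 farthest (0.396). For rme-2 the nearest were abi-1 (0.0643), F54E12.2 (0.0658), mat-1 (0.0699), the eggshell chitin synthase gene chs-1 (0.0715) and gln-6 (0.0758), against a median of 0.403. The yolk genes stood at 0.435 to 0.735 from rme-2, above that median for each of the 6. A gene with no variation would stand at 0.416 from rme-2.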

How the data were processed

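Each library's file, as the authors deposited it, lists unnormalized gene counts in the layout of STAR, per the file headers. The submitters' processing notes name STAR and DESeq2 and no versions; build, annotation and alignment options were not found in these sources. Unstranded counts were used for mRNA and sense-strand counts for footprints (50.5 to 50.9% and 99.6 to 99.9% of counts lay on the gene's strand). Deposited comparison tables hold log2 fold changes, p-value columns and a base mean, an averaged signal per the file headers; none entered a test.

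Genes passing filterByExpr were scaled with TMM and tested by edgeR 4.0.16 in R 4.3.3 (quasi-likelihood), with 1 fit per assay over all its libraries and Benjamini-Hochberg adjustment at 0.05 over 13315 mRNA, 12387 footprint and 12079 efficiency genes. DESeq2 1.42.0 was an alternative. Scripts were tested on simulated data. Members, lists and tests were chosen with earlier results of these data known. Genes named were the 7 members, metl-5, the 5 nearest patterns and up to 3 genes per pathway list with the smallest p among those called in WT mRNA between temperatures. Same-numbered footprint libraries deviated together (correlations of 0.157 to 0.601), as did mRNA libraries between strains (0.146 to 0.514). There the numbers were taken to pair samples, but the reported fits hold no replicate block and so ignore that pairing. Fits with the block are among the alternatives. The pairing was least clear for mutant 20 °C mRNA replicate 1, at 0.146 with WT replicate 1 and 0.157 with WT replicate 2. In mRNA between temperatures same-numbered libraries ran from -0.027 to 0.395 and others from -0.377 to 0.140, so pairing was not clear there. Permutation tests planned for the summed share are not given, since the sum was chosen with results known. Protein and promoter sequences were not analysed here. Positions are from WBcel235 (Ensembl); sec-13, apm-2 and opt-2 were not matched.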

Additional observations from a re-analysis of the deposited data

How the results depend on the processing

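All 6 vitellogenins kept negative footprint and efficiency differences between temperatures in every alternative run, while counts of genes called moved; beyond the change in libraries or genes that each alternative makes, the cause was not tested. For mRNA between temperatures in WT, library totals called 2 genes, which were vit-3 and vit-4, both lower, and did not call vit-2. DESeq2 called 2, the replicate block 3 and a fit of only the groups compared 0, against 1 as reported. In the mutant RLE factors called 2, DESeq2 3 and the replicate block 4, against 1. With library totals vit-4 was called lower in the mutant and vit-2 was not called. In mRNA between temperatures it was not clear that the numbers pair the samples. For footprints in WT, RLE factors called 1 gene, DESeq2 5, no filter 1, the replicate block 6, without both libraries absent from the authors' averages 7 and without the 6 doubted ones 6, against 0. For efficiency in WT those last 2 fits called 7 and 6, against 3; in the mutant the replicate block, only the groups compared, and the library pair as a block (added after seeing the data) each called 7, against 4. Strain calls stayed at 0 of 7 in every alternative run, the replicate block included. Leaving out 1 library at a time gave 0 to 3 mRNA calls in the mutant and 0 to 2 in WT, 0 to 7 footprint calls in each strain, and 3 to 7 efficiency calls in the mutant and 1 to 7 in WT. The share of all genes called in these alternatives between temperatures is not given here, so the counts stand without a background. Among temperature differences signs turned for vit-3 mRNA in the mutant (-0.0024 as reported), which was 0.0025 with RLE and with DESeq2, 0.0097 with no filter, 0.0083 with only the groups compared and -0.32 to 0.21 without single libraries; for vit-4 mRNA in the mutant, which ran from -0.37 to 0.070 without single libraries; for rme-2 mRNA in the mutant, which was -0.48 with library totals and -0.077 to 0.21 without single libraries; and for rme-2 efficiency in WT, which was 0.017 with library totals. Uncalled differences between strains and their interaction with temperature also changed sign without single libraries. In footprints of mutant minus WT at 37 °C, fits without single libraries ran from -0.10 to 0.71 for vit-1, -0.85 to 1.15 for vit-2, -0.80 to 0.94 for vit-3, -0.94 to 0.89 for vit-4, -0.66 to 0.90 for vit-5, -0.55 to 0.92 for vit-6 and -0.88 to 0.45 for rme-2. The values without both libraries absent from the authors' averages were 1.17 for vit-2, 0.96 for vit-3, 0.91 for vit-4, 0.91 for vit-5, 0.94 for vit-6 and 0.46 for rme-2, and without the 6 doubted ones 0.60, 0.53, 0.50, 0.63, 0.55 and 0.81 in that order. With the replicate block vit-2 was 0.0060 and vit-6 0.061. The fit of only the groups compared was not run for the mean of temperatures or the interaction, which use every group. In the summed shares no alternative moved a difference by more than 1 SD, and scaling by TMM factors was not among those alternatives. Footprint depth was lower at 37 °C, where the smallest counts were 697 for vit-4 and 148 for rme-2, and each group held 3 libraries.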
